A study of Mus musculus with 21 samples.

Results

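Lumbar spinal cord of 17 month old mice without a working pair of 3110043O21Rik alleles (the mouse gene that corresponds to C9orf72) was compared with cord of wild type mice of the same age. The 8 libraries were taken by the genotype and age labels, 4 null (C9orf72 -/-) and 4 wild type (C9orf72 +/+), out of 21 in the series. All animals are labelled C57BL/6. The other 17 month libraries are 4 heterozygous cords (C9orf72 +/-), used here only to place values, and 3 null and 3 wild type cords of 3 months give a second set of animals. Cords were frozen, RNA was extracted with Trizol and a column kit, and the libraries were made by an Ion Torrent protocol at 17 months and an Illumina protocol at 3 months. The sources used here do not say how the allele was made or whether littermates were used. The genotype is given for the whole animal.

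C9orf72 protein forms a complex with Smcr8 and Wdr41 that acts on small GTPases, autophagy and lysosomes. The gene is strongly expressed in myeloid cells, and a repeat expansion in the human gene causes amyotrophic lateral sclerosis and frontotemporal dementia. The adult lumbar cord holds motor neurons, interneurons, oligodendrocytes with their myelin, astrocytes, microglia and vessels, and a bulk library measures them together. In such a library, fewer cells of a type and less RNA per cell cannot be told apart.

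The targeted gene followed the labels. 3110043O21Rik (chr4:35191285-35226175 in GRCm38, minus strand, protein coding) measured 1.68, 1.81, 0.926 and 0.579 RPKM in null replicates 1 to 4. The wild type replicates measured 13.5, 13.7, 13.9 and 14.5 RPKM. Every null library lay far under every wild type library, and the gene fell to 8.98% of the wild type mean, with 12.08%, 12.99%, 6.66% and 4.17% left in the single null cords. On the log2(RPKM + 0.5) scale the null cords differed by -3.11 (SE 0.21, n = 4 each, limma adjusted p = 0.000709), and the exact two-sided permutation p was 0.0286, the smallest that 4 against 4 libraries allow. Of the 26 other genes tested within 5 Mb, the median difference was -0.01, in a range of -0.26 to 0.53. The neighbour Mob3b was the 1 gene among them whose groups did not overlap. Over all genes 1.39% were separate on the higher side and 1.73% on the lower, so that 1 of 26 is close to those shares. Mob3b measured 3.85 ± 0.337 RPKM in null and 4.70 ± 0.418 in wild type cords (mean ± SD, n = 4 each), a log2 difference of -0.26 that did not pass adjustment.

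Libraries differed in ways that cut across genotype. Null replicate 2 stood alone on the first principal component, which held 48.6% of the variance, and wild type replicate 4 on the second, which held 21.2%. Xist RNA, by which female cells inactivate an X chromosome, was abundant in null replicates 2 and 4 and wild type replicate 3 (25.7, 36.0 and 44.6 RPKM) and at most 0.434 RPKM in the other 5. Hoxa11, a patterning gene of the caudal lumbar and sacral cord, measured 0.0703 RPKM in null replicate 2 and 0.110 in wild type replicate 3 and 1.61 to 2.43 RPKM in the other 6. Skeletal muscle Acta1 measured 3.35 and 1.49 RPKM in wild type replicates 3 and 4 and at most 0.604 in the others. These genes were chosen after their values were seen. Forebrain markers Emx1 and Emx2 were listed at or near 0 in every library while Hoxd9, a gene of the trunk cord, was present at 10.98 to 15.8 RPKM. The part of segment level, sex and muscle in the results below was not tested, beyond the values given with a covariate for Xist or without a library.

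**Figure D1:**
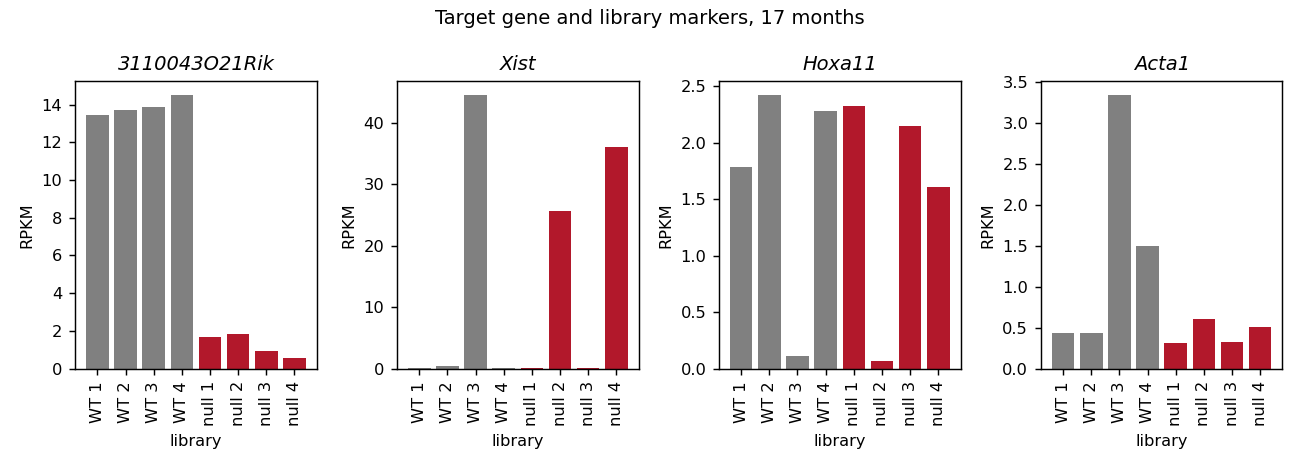
Bars show the RPKM of 1 library each (grey wild type, red null, axes from 0) for the targeted gene, Xist, Hoxa11 and Acta1. The target separates the genotypes, with null libraries at 0.579 to 1.81 RPKM, whereas Xist is high in null replicates 2 and 4 and wild type replicate 3, Hoxa11 is near 0 in null replicate 2 and wild type replicate 3, and Acta1 is highest in wild type replicate 3.

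Across the 14028 genes tested, those that reached 0.5 RPKM in 4 or more of the 8 libraries, the target was the 1 gene past a limma adjusted p of 0.05, or 0.00713% of those tested. At an unadjusted p under 0.05, 389 genes measured higher in null cords (2.77%) and 269 lower (1.92%). The groups were separate, with no overlap between libraries, with null cords higher for 195 genes (1.39%) and lower for 243 (1.73%). The median difference over all genes was 0.01. The differences below are therefore described gene by gene and library by library, and none but the target passed adjustment in this fit.

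Genes that respond to glucocorticoids measured higher in null cords. Glucocorticoids, corticosterone in the mouse, bind a nuclear receptor that switches on a well known set of genes in most tissues, in the brain and cord chiefly in astrocytes, oligodendrocytes and endothelium. Of 24 such genes listed, 22 were tested, and all 22 had a positive difference, with a median of 0.73 on the log2 scale. An unadjusted p under 0.05 was found for 18 of the 22, against 2.77% of all genes, and the 4 null libraries lay above the 4 wild type libraries for 5, against 1.39% of all genes. This list, like the others below, was chosen with earlier results of these data known, and its members moved together across libraries. The shares therefore describe the list and are no test of it. Of the members, Mt1 and Mt2 also respond to metals, Cdkn1a to DNA damage and Ddit4 to low oxygen.

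The serum and glucocorticoid regulated kinase Sgk1 had the largest difference of the list. It measured 9.90, 102, 70.6 and 49.0 RPKM in null replicates 1 to 4 and 8.56, 8.81, 12 and 9.48 RPKM in wild type replicates 1 to 4. Thus 3 null cords held several times the wild type level and null replicate 1 lay within the wild type range. On the log2 scale this came to 2.12 (SE 0.60, limma adjusted p = 0.777). In heterozygous cords it measured 11.2, 27.8, 14.7 and 26.6 RPKM, so that 2 of them lay well above the wild type range and all under the 3 high null cords.

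Zbtb16, a zinc finger transcription factor that glucocorticoids induce strongly, was higher in every null library. Its values were 3.29, 6.34, 5.45 and 5.24 RPKM in null replicates 1 to 4 against 2.15, 2.27, 2.58 and 2.32 RPKM in wild type (log2 difference 0.95, SE 0.16, limma adjusted p = 0.533). Hif3a, a member of the hypoxia-inducible factor family, measured 0.725, 2.89, 2.93 and 1.72 RPKM in null and 0.458, 0.441, 0.454 and 0.271 RPKM in wild type libraries (1.39, SE 0.29, limma adjusted p = 0.622). For both genes null replicate 1 was the lowest null library and still lay above every wild type library. Plin4, a lipid droplet coat protein, followed the same order, at 1.48, 7.27, 4.22 and 4.15 RPKM in null and 0.934, 0.683, 1.06 and 1.27 RPKM in wild type libraries (1.54, SE 0.35). The clock gene Per1, which carries a glucocorticoid response element, measured 6.06, 9.81, 9.56 and 8.01 RPKM in null and 5.30, 5.55, 5.05 and 5.29 RPKM in wild type libraries (0.59, SE 0.13).

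Members with a role in feedback and in metabolism showed the same 3 null cords high. Fkbp5, a co-chaperone that dampens the glucocorticoid receptor, measured 7.89, 16.1, 13.7 and 11.3 RPKM in null replicates 1 to 4 and 6.43 to 8.61 RPKM in wild type (0.57, SE 0.19). Tsc22d3, which encodes the anti-inflammatory protein GILZ, measured 46.8, 98.2, 81.8 and 69.1 RPKM in null and 45.3 to 53.8 RPKM in wild type cords (0.53, SE 0.19). Null replicate 1 lay within the wild type range for both. Arrdc2 was at 5.62 RPKM in null replicate 1, 24.6, 17.0 and 13.3 in the others and 5.63 to 6.05 in wild type (1.14, SE 0.36). Metallothionein Mt1 measured 290.4, 1228, 495 and 446 RPKM in null and 232 to 374 in wild type cords (0.91, SE 0.38). Members near the wild type level were Glul, the glutamine synthetase of astrocytes (0.09, SE 0.11), and Gpd1, a glycerol phosphate dehydrogenase that glucocorticoids raise in oligodendrocytes (0.04, SE 0.10).

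Averaged over the 22 genes, the log2 deviation from the wild type mean was 0.05, 1.43, 0.94 and 0.76 in null replicates 1 to 4. It was -0.09, -0.06, 0.04 and 0.12 in wild type replicates 1 to 4, and 0.13, 0.15, 0.07 and 0.15 in the heterozygous ones. Null replicate 1 lay above all wild type libraries for 5 of the 22 genes, within their range for 12 and below for 5. Over all 14028 genes these counts were 2191, 7946 and 3891. The pattern is thus that of 3 null cords, with the fourth at the wild type level. Null replicate 2, the library that stood apart, was the highest null library for 19 of the 22, and for 5735 of all 14028 genes. Without it the median was 0.51, with 15 of 22 at an unadjusted p under 0.05 against 1.84% of all genes, and without it and wild type replicate 4 the median was 0.54, with 12 of 22 against 4.18%. Null replicate 3, with low Xist, held the second highest mean, and with a covariate for Xist the median was 0.63.

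Null replicate 1 is the cord without the pattern, so a fit that leaves it out is conditioned on the outcome. Without it, limma called 10 of the 22 genes at an adjusted p under 0.05, with Sgk1 at a log2 difference of 2.81 (adjusted p = 0.00358), Zbtb16 at 1.12 (adjusted p = 0.00358) and Plin4 at 1.91 (adjusted p = 0.00617). Leaving out any other single library called 0 of the 22. In the fit without null replicate 1, 30 genes were called higher (0.214%) and 4 lower (0.0285%), and 20 of the 22 had an unadjusted p under 0.05 against 5.28% of all genes. With array weights, which weigh each library by how closely it follows the fit, limma also called 30 genes higher (0.214%) and 11 lower (0.0784%), among them Zbtb16, Plin4, Per1 and Hif3a of this list. The fits without null replicate 1 and with array weights shared 16 called genes, 47.1% and 39.0% of their calls, and use largely the same libraries.

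**Figure D2:**
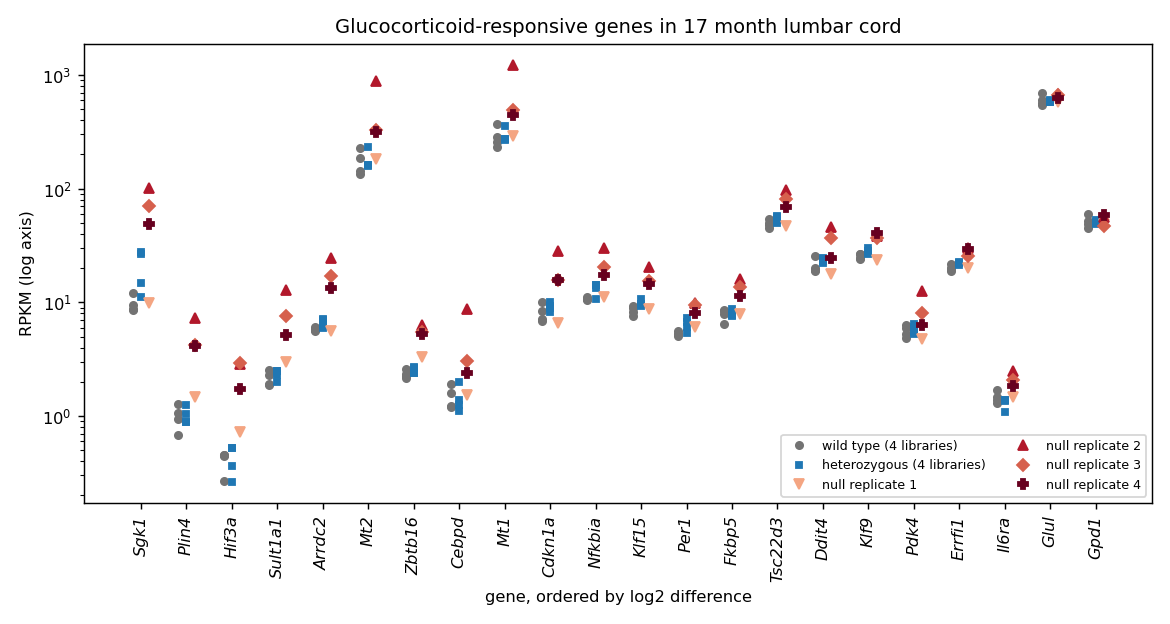
Each point is the RPKM (log axis) of a glucocorticoid-responsive gene in 1 library, with grey circles for wild type, blue squares for heterozygous and red symbols for each null replicate. Null replicates 2, 3 and 4 lie above the wild type points for most genes, for example Sgk1 at 49.0 to 102 RPKM against 8.56 to 12, while null replicate 1 lies among them.

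The glucocorticoid receptor binds a palindrome of the form GNACANNNTGTNC, so promoter windows of 300 bases (RefSeq, GRCm38.p6, 250 before to 50 after the transcription start) were searched for it. The palindrome is its own reverse complement, so a single search covers both strands. Of the 22 tested genes, 19 had a window and 2 held a match, Sgk1 and Mt1, and of the 29 genes named by the rule 24 had a window and 1 held a match, Tinagl1. Among all 32851 windows 0.475% held a match, and among the windows of the genes tested here 0.341%. Counted by gene, a match was held by 44 of the 10961 tested genes with a window. The windows of Sgk1 (chr10:21993640-21993939, plus strand) and Mt1 (chr8:94178839-94179138, plus strand) are shown because they are those of the list that hold a match, with the match in capitals. It begins 188 and 94 bases before the start of Sgk1 and Mt1.
Sgk1: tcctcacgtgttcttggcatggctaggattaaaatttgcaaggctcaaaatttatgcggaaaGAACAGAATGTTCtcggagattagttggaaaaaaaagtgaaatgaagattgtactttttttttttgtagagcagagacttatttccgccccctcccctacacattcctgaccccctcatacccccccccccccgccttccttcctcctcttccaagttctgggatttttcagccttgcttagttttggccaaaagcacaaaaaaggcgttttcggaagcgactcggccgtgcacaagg
Mt1: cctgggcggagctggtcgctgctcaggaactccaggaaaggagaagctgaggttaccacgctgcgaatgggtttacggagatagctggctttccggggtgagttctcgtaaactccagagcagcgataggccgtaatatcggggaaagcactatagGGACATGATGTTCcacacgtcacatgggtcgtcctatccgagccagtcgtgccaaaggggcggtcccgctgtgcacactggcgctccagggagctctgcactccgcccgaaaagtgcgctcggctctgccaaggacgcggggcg
Each match is a description of letters, and binding was not measured.

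At 3 months the same 22 genes had a median difference of 0.16, in other animals and on another instrument. Of them 21 were higher in null cords, where 52.8% of all 13868 genes tested were, and 6 had an unadjusted p under 0.05 against 3.12% of all genes that were higher and 3.16% that were lower with such a p. Plin4 differed by 0.51 (SE 0.10) and Hif3a by 0.26 (SE 0.11), while Sgk1 differed by 0.70 with an SE of 0.47. The lean was not particular to this list. Heat shock and ER stress genes were higher for 17 of 17 and erythroid genes for 11 of 12, with a median of 0.36. By contrast, 18 of 21 oligodendrocyte and myelin genes were lower, and the complement and activated microglia medians were 0.02 and 0.01. At that age limma called 1 gene, the target (0.00721%). The change of these differences with age was not tested, because age and instrument cannot be told apart.

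Red cell genes measured higher in the null cords. The erythroid list had 13 tested members, of which 11 were higher and 8 did not overlap between the groups (1.39% of all genes), and its median difference was 1.86 (1.31 without null replicate 2). Beta-globin Hbb-b1 measured 208, 1746, 571 and 391 RPKM in null and 149, 141, 92.8 and 108 RPKM in wild type cords (2.14, SE 0.55, limma adjusted p = 0.725). Alas2, which starts haem synthesis in developing red cells, measured 4.04, 34.2, 11.6 and 7.64 RPKM in null and 2.77, 2.14, 1.63 and 1.65 RPKM in wild type cords (2.15, SE 0.52). Null replicates followed the same order as for the glucocorticoid genes, with mean deviations of 0.45, 2.32, 1.26 and 0.95 in replicates 1 to 4. The red cell regulator Klf1 was at most 0.139 RPKM in every library, and how much blood each cord held was not tested. Hbb-b2 and Hbb-bt had identical values in all libraries and so are 1 measurement, but the counts above hold both. Reads of other near-identical globin genes may be shared as well.

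Genes of vessels followed with smaller differences. Vwf, the von Willebrand factor of endothelium, measured 2.38, 6.84, 7.71 and 3.93 RPKM in null and 1.49, 1.86, 1.82 and 1.28 RPKM in wild type cords (1.33, SE 0.30, limma adjusted p = 0.693). The glucose transporter Slc2a1 of the blood-brain barrier measured 51.0, 97.7, 82.8 and 69.9 RPKM in null and 44.1 to 48.5 in wild type cords (0.66, SE 0.17, and adjusted p = 0.0385 with array weights). Both groups were separate for these genes and for Ly6c1, Flt1 and Kcnj8, 5 of the 17 tested members of the endothelial and pericyte list against 1.39% of all genes, and the median of the list was 0.24. Without null replicate 2 and wild type replicate 4 the median of the list was 0.05, so that the list as a whole rests on those libraries. Vwf then differed by 1.09 and Slc2a1 by 0.54. Genes with separate groups cannot change direction when libraries are left out. Pecam1, an adhesion molecule found throughout endothelium, differed by 0.41 with all libraries and by 0.22 without both.

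The genes closest to the threshold outside these lists had varied roles. On the higher side, Xdh, which makes uric acid, measured 2.60, 5.17, 3.53 and 3.91 RPKM in null and 1.80, 1.58, 2.03 and 1.60 RPKM in wild type cords (0.90, SE 0.16, limma adjusted p = 0.533). The progestin receptor Paqr5 measured 1.05, 2.23, 1.96 and 1.504 RPKM in null and 0.612 to 0.777 in wild type cords (0.86, SE 0.16). Both were lowest in null replicate 1 and highest in null replicate 2. Dusp6, which switches off ERK, was even across the null cords at 7.86, 9.53, 8.40 and 8.61 RPKM, against 5.91 to 7.16 in wild type (0.43, SE 0.09, and adjusted p = 0.0113 with array weights). H2-Q6, a nonclassical class I MHC gene, was even as well, at 1.48 to 1.89 RPKM in null and 0.834 to 1.14 in wild type cords (0.58, SE 0.11), with reads that may be shared with its near copies. Null replicate 1 thus joined the other null cords for these 2 genes. Dusp6 was also named by its p with array weights, so its call there is not separate evidence.

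The other higher genes named by the rule were these, with separate groups because the rule requires them. Nostrin, which moves endothelial nitric oxide synthase, differed by 0.80 (SE 0.16) and the matrix protein Tinagl1 by 0.65 (SE 0.13). The chemokine Cxcl12 differed by 0.66 (SE 0.15), the lipid transporter Mfsd2a of the blood-brain barrier by 0.62 (SE 0.14) and the exporter Abcc4 by 0.45 (SE 0.10). Mertk, a receptor for the clearance of dying cells, differed by 0.61 (SE 0.14), and the AP-1 member Fosl2 by 0.38 (SE 0.08). Of these genes array weights called Tinagl1, Mfsd2a and Mertk, which were also named by their p with array weights, so the calls are not separate evidence. Nostrin, Cxcl12, Abcc4 and Fosl2 were called under none of the 20 alternatives.

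On the lower side, 3 of the 13 genes are given with their values first. Fgfr2, a fibroblast growth factor receptor of oligodendrocytes, measured 24.7, 17.6, 19.7 and 22.9 RPKM in null and 28.9, 30.5, 28.6 and 34.8 RPKM in wild type cords (-0.53, SE 0.11, limma adjusted p = 0.622). Lpar1, a lysophosphatidic acid receptor of myelinating cells, measured 20.0 to 22.5 RPKM in null and 25.4 to 28.9 in wild type cords (-0.36, SE 0.07). Nkx2-2, a transcription factor of the oligodendrocyte lineage, measured 4.88, 4.16, 3.40 and 3.596 RPKM in null and 5.55 to 6.24 in wild type cords (-0.49, SE 0.10). For all 3 genes every null library lay below every wild type library, as the rule requires. With array weights limma called each (adjusted p = 0.0385, 0.0432 and 0.0239). All 3 were also named by their p with array weights, so these calls are not separate evidence. The number of such calls varied widely with the libraries kept, as given below.

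The other 10 lower genes were these. Dusp16, a phosphatase that acts on JNK, measured 5.28 to 6.00 RPKM in null and 7.08 to 7.74 in wild type cords (-0.38, SE 0.07, limma adjusted p = 0.533). Trim59, a ubiquitin ligase, measured 12.4 to 16.3 RPKM in null and 17.7 to 22.1 in wild type cords (-0.55, SE 0.10). The activity gene Arc, whose product acts at synapses, measured 9.74, 4.97, 7.13 and 8.20 RPKM in null and 10.6 to 13.2 in wild type cords (-0.67, SE 0.17), and was lowest in null replicate 2. Creb5 (-0.58, SE 0.11), Fam212b (-0.59, SE 0.12) and the mTOR inhibitor Ddit4l (-0.45, SE 0.11) were lower too. So were the neurokinin B gene Tac2 of dorsal horn neurons (-0.46, SE 0.11), Nfe2l3 (-0.39, SE 0.09), Cml3 (-0.44, SE 0.11) and the RNA-binding Mex3d (-0.45, SE 0.11). The rule requires separate groups of all these genes.

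**Figure D3:**
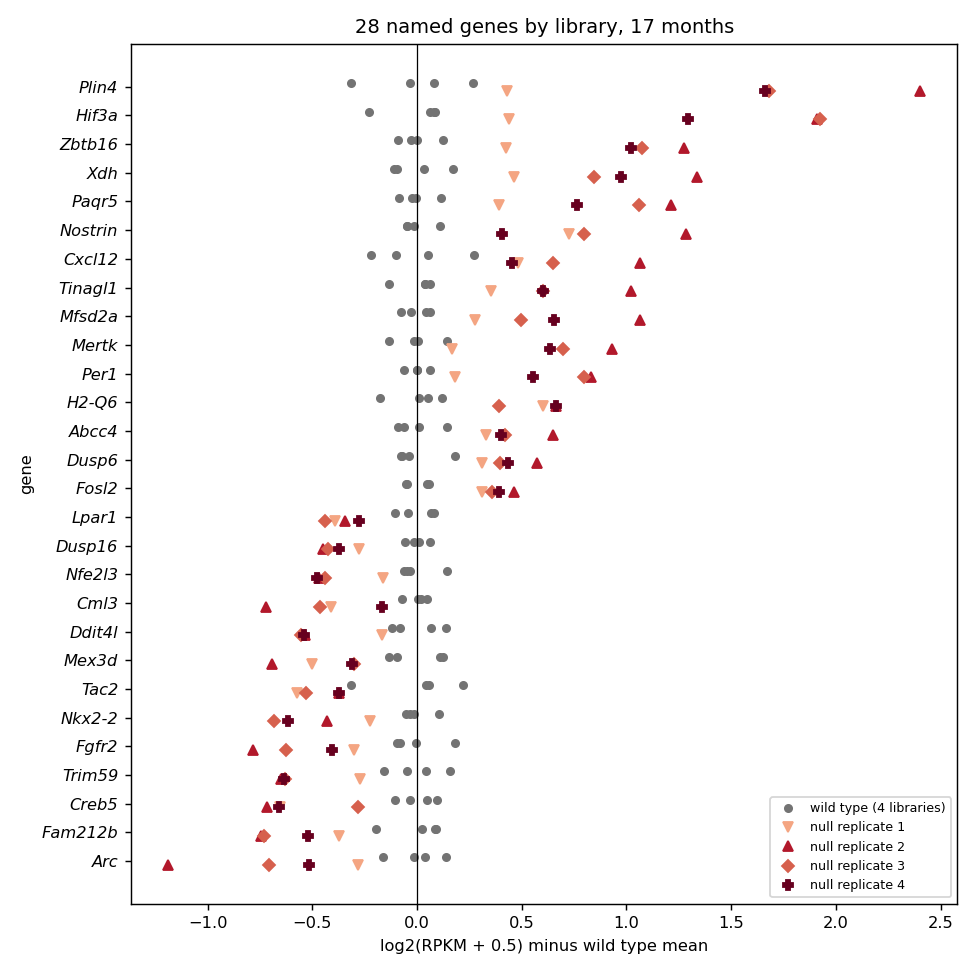
Each point is 1 library, placed by its log2(RPKM + 0.5) minus the wild type mean, for the 28 genes named by the rule besides the target. Null and wild type points do not overlap for any of these genes, as the rule requires, and null replicate 2 is the farthest of the null points for most of the higher genes.

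Of the 15 higher genes, 14 were tested at 3 months and all 14 were higher there, by 0.09 to 0.51, with a median of 0.22 against 0.65 at 17 months. Of the 13 lower genes, 12 were lower at 3 months, with a median of -0.13 against -0.46, and Dusp16 differed by 0.02. An unadjusted p under 0.05 was found at 3 months for 7 of the 14 and 2 of the 13, against 3.12% and 3.16% of all genes, and 0 passed adjustment by limma. The genes were chosen at 17 months for separate groups, which favours large differences there.

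**Figure D4:**
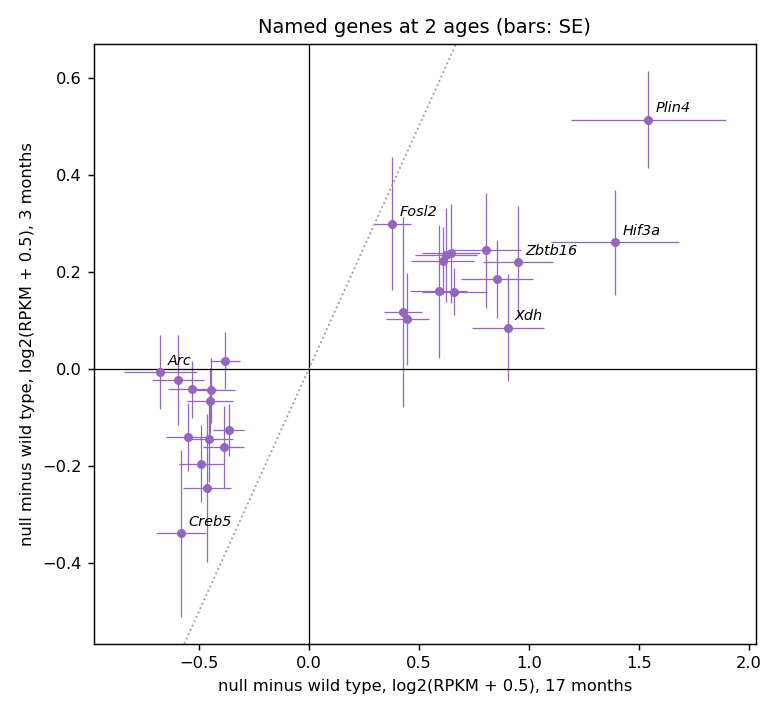
Each point is a named gene with its null minus wild type log2 difference at 17 months (horizontal) and at 3 months (vertical), bars giving the SE and the dotted line equal differences. All higher genes lie above 0 at both ages, with Plin4 at 1.54 and 0.51, and their values at 3 months are smaller.

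Reactive astrocyte, complement, cytokine and antigen presentation lists measured higher in null cords, with null replicate 2 the highest library in the mean of each. Reactive astrocyte genes had a median of 0.55, with 16 of 16 higher, and mean deviations of 0.29, 1.41, 0.25 and 0.37 in null replicates 1 to 4 against -0.17, -0.25, 0.03 and 0.40 in wild type. Wild type replicate 4 thus lay above 3 of the 4 null cords. Without null replicate 2 the median was 0.24, with 5 of 16 at an unadjusted p under 0.05 against 1.84% of all genes, and without both libraries it was 0.33, with 7 of 16 against 4.18%. The oncostatin M receptor gene Osmr measured 2.26, 4.88, 2.61 and 2.46 RPKM in null and 1.21, 1.30, 1.72 and 2.06 RPKM in wild type cords (0.74, SE 0.21, and adjusted p = 0.0496 with array weights). Lcn2, a marker of reactive astrocytes, measured 2.17, 18.2, 9.71 and 3.504 RPKM in null and 0.467 to 2.27 in wild type cords (1.89, SE 0.59). Among homeostatic astrocyte genes the gap junction gene Gjb6 had separate groups (34.9 to 53.7 against 32.1 to 34.6 RPKM), and angiotensinogen Agt differed by 0.50 (SE 0.16).

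Complement and Fc receptor genes had a median of 0.55, with 14 of 14 higher. Complement factor B, Cfb, measured 0.647, 0.953, 0.884 and 0.843 RPKM in null and 0.386, 0.536, 0.382 and 0.426 RPKM in wild type cords (0.51, SE 0.11, limma adjusted p = 0.622), so that it was even across the null cords. The C1 inhibitor gene Serping1 measured 3.93, 10.9, 3.29 and 4.03 RPKM in null and 2.20 to 3.06 in wild type cords (0.81, SE 0.31). The list median without null replicate 2 was 0.24, with 4 of 14 at an unadjusted p under 0.05 against 1.84% of all genes, and without both libraries it was 0.40, with 11 of 14 against 4.18%. Cytokine and NF-kB target genes had a median of 0.43, of 0.11 without null replicate 2 and of 0.28 without both libraries. Of the 14, 2 were separate against 1.39% of all genes, the interleukin 1 receptor gene Il1r1 (0.73, SE 0.21) and the adhesion gene Icam1 (0.73, SE 0.22). Il1r1 was barely so, at 0.897 RPKM in null replicate 1 and 0.894 in wild type replicate 1. The antigen presentation list had a median of 0.26, of 0.13 without null replicate 2 and of 0.21 without both libraries. Of its 15 tested genes 2 were separate, against 1.39% of all genes, the peptide transporter subunits Tap1 (0.31, SE 0.10) and Tap2 (0.19, SE 0.07).

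Of the microglia and lysosome genes 0 had separate groups, where 1.39% of all genes did on the higher side and 1.73% on the lower, so that the 0 is close to those shares. Activated microglia genes were higher for 16 of 16, with a median of 0.31, but the mean deviation was 0.18, 1.51, -0.07 and 0.30 in null and -0.29, -0.41, 0.19 and 0.52 in wild type replicates 1 to 4, so the groups overlapped. Without null replicate 2 the median was 0.10. Without it and wild type replicate 4 the median was 0.24, with 13 of 16 higher. Cystatin Cst7 measured 5.37, 18.1, 3.65 and 4.57 RPKM in null and 1.88, 1.23, 3.05 and 4.83 RPKM in wild type cords (1.22, SE 0.50). Homeostatic microglia genes had a median of 0.17 and lysosome genes of 0.14, with 24 of 27 lysosome genes higher. Of these 27, 0 had an unadjusted limma p under 0.05, close to the 2.77% of all genes higher and 1.92% lower with such a p. Without null replicate 2 the homeostatic microglia and lysosome medians were 0.02 and 0.01, with 14 of 27 lysosome genes higher. Without it and wild type replicate 4 they were 0.16 and 0.11, with 25 of 27 lysosome genes higher. Of the 27, 5 were then higher with an unadjusted limma p under 0.05, against 4.18% of all genes. The medians thus depend on which of these libraries is kept. The protease Ctsb, for example, measured 155, 237, 170 and 169 RPKM in null and 138, 147, 148 and 185 in wild type cords. The T and NK cell list, with Ccl5 its 1 tested member (0.62 on the log2 scale), summed to 2.03, 5.96, 3.03 and 3.39 RPKM in null and 1.17, 1.47, 1.47 and 4.21 RPKM in wild type cords. It was highest in null replicate 2 and wild type replicate 4. The granulocyte marker S100a8 reached 5.18 RPKM in null replicate 2 and at most 0.764 in the other null and wild type cords. The interferon response list had a median of 0.09 (0.02 without null replicate 2, and 0.05 without it and wild type replicate 4). Rsad2 (0.56, SE 0.20) and Ifitm3 (0.54, SE 0.21) were its members of smallest p.

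The partners of the protein were near the wild type level. Smcr8 measured 6.96 ± 0.511 RPKM in null and 7.03 ± 0.285 in wild type cords (mean ± SD, n = 4 each), and Wdr41 measured 14.1 ± 0.442 and 14.3 ± 1.09 RPKM. The list of complex and autophagy genes had a median of 0.04, with 0 of 22 at an unadjusted limma p under 0.05. Over all genes 2.77% were higher and 1.92% lower with such a p, so that the 0 is close to those shares. In the lysosome positioning list, Plekhm2, an adaptor between lysosomes and kinesin, measured 32.8, 34.0, 35.3 and 35.5 RPKM in null and 41.0, 39.9, 40.4 and 40.9 RPKM in wild type cords. The groups were separate with little spread, at a log2 difference of -0.23 (SE 0.06, limma adjusted p = 0.725), and at 3 months it differed by -0.29 (SE 0.04, limma adjusted p = 0.0869). Plekhm1, an adaptor for Rab7 on late endosomes, measured 4.42 to 5.24 RPKM in null and 3.85 to 4.32 in wild type cords (0.18, SE 0.08). ALS and FTD genes had a median of -0.02, with 0 of 21 at an unadjusted limma p under 0.05, again close to the shares of all genes.

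Myelin and cholesterol genes measured lower. Cyp51, the lanosterol demethylase of cholesterol synthesis, measured 27.1, 22.7, 25.4 and 28.3 RPKM in null and 29.1, 31.1, 30.0 and 30.7 RPKM in wild type cords (-0.22, SE 0.08). Of 21 cholesterol genes 19 were lower, with a median of -0.13, and 4 of 21 had separate groups against 1.73% of all genes, Hmgcs1, Cyp51 and Sc5d among them. The list mean in the null cords was -0.10, -0.14, -0.22 and -0.07 against the wild type mean. Wild type libraries ranged from -0.09 to 0.07, so the groups overlapped in this mean. Without both libraries the median was -0.11.

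Of 21 oligodendrocyte and myelin genes 16 were lower, with a median of -0.13, and 4 had separate groups against 1.73% of all genes. The list means overlapped, at -0.21, -0.07, -0.10 and -0.11 in null and -0.14, -0.05, 0.01 and 0.18 in wild type cords. The myelin galactolipid enzyme Ugt8a measured 61.2, 40.5, 47.2 and 61.7 RPKM in null and 64.7, 64.4, 73.8 and 83.0 RPKM in wild type cords (-0.45, SE 0.14). Opalin measured 25.8 to 29.7 RPKM in null and 29.9 to 41.6 in wild type cords (-0.33, SE 0.11), and Enpp2 measured 120.2 to 134 and 140.0 to 155 RPKM (-0.22, SE 0.08). Wild type replicate 4 held the highest Ugt8a and Enpp2, and without it the median of the list was -0.06. Precursor genes were level, with a median of -0.004 over 12 genes.

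Neuronal lists did not separate the genotypes. Motor neuron genes had a median of -0.12 with all libraries and 0.03 without null replicate 2 and wild type replicate 4, so the direction turned. Chat, the enzyme that makes acetylcholine, measured 10.4, 7.21, 10.8 and 10.9 RPKM in null and 11.5, 11.5, 8.83 and 13.6 RPKM in wild type cords, and was lowest in the 2 libraries with little Hoxa11. Synaptic genes had a median of -0.04, with 0 of 18 at an unadjusted limma p under 0.05. Over all genes 2.77% were higher and 1.92% lower with such a p, so that the 0 is close to those shares.

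**Figure D5:**
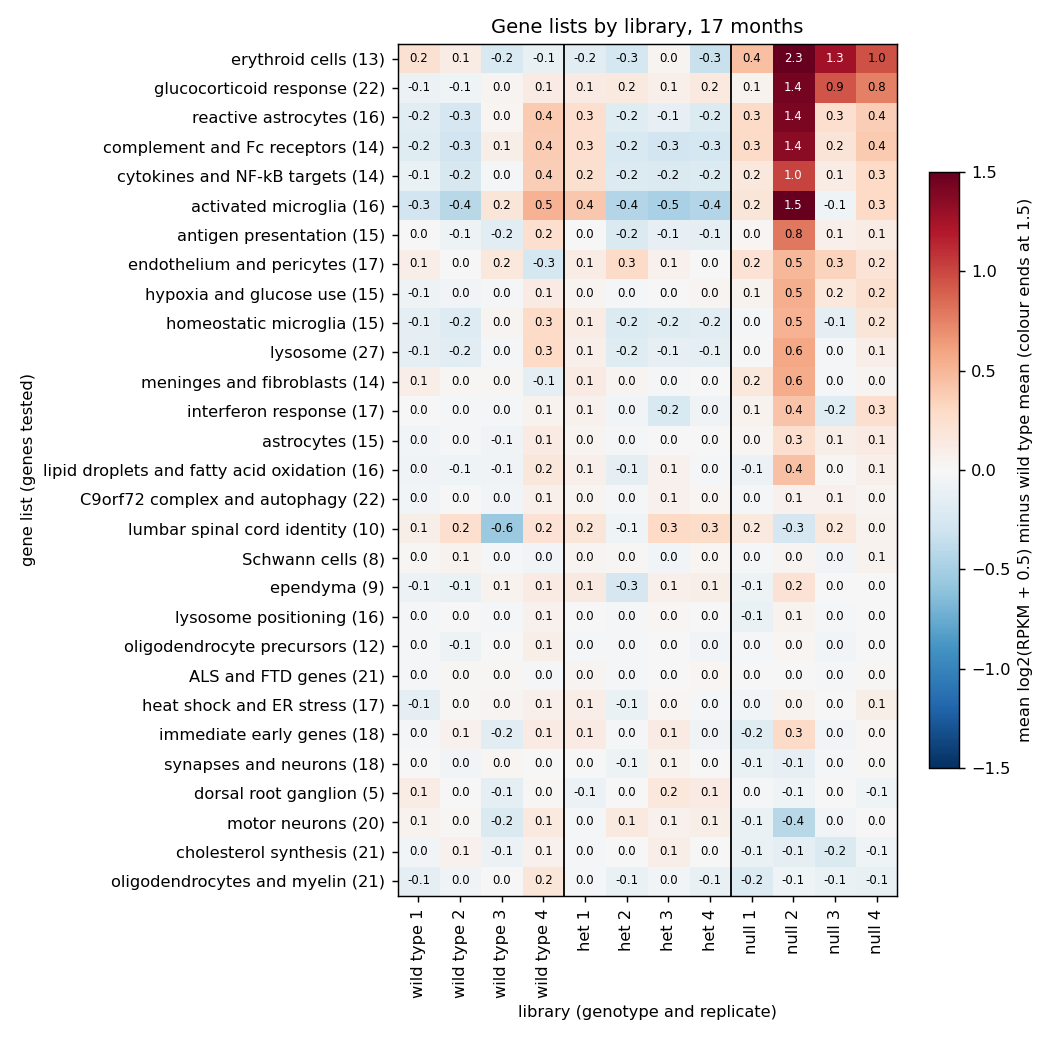
Each cell is the mean log2(RPKM + 0.5) of a list's tested genes in 1 library minus the wild type mean, for 4 wild type, 4 heterozygous (het) and 4 null libraries, with lists ordered by their median difference. Null replicate 2 is high in the reactive astrocyte, complement and activated microglia lists, whereas the glucocorticoid list is high in null replicates 2, 3 and 4 (1.43, 0.94 and 0.76) and near 0 in null replicate 1.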

How the data were processed

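The authors deposited a table of RPKM values per age, a column per library. The sources used here do not state whether these are RPKM or FPKM, nor the annotation or the way reads were counted. TopHat2 2.0.8b, Partek and the builds mm9 and mm10 are named, per the submitters' processing notes, without saying which table used which. Some values lay far below the worth of 1 read, so reads were apportioned by estimation, near-identical genes cannot be told apart and no count test was run. Rows named as dates (26 per table) were dropped, which left 20153 genes at 17 months, and 0 columns were left unused. Read totals are unknown. Ratios between the low values of a gene put the deepest of the 8 libraries at about 1.36 times the shallowest. Pairs of libraries correlated at 0.973 to 0.996, and 0 pairs were identical. Each library was taken as 1 mouse, as the design text has it, so p-values measure the spread between these libraries.

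Genes that reached 0.5 RPKM in 4 of 8 libraries (3 of 6 at 3 months) were compared by a two-sided limma test of log2(RPKM + 0.5), moderated with a trend and robustly, with p-values adjusted by Benjamini-Hochberg over all genes. Versions were R 4.3.3, limma 3.58.1 and statmod 1.5.0. Such differences understate changes of low genes. The fit was tested on simulated data. Named genes are the target, up to 12 per direction with the smallest p among separate groups with a group mean of at least 1 RPKM and no clone or microRNA names, 10 per direction by array weights under the same conditions, and up to 4 members per list. Other genes named from the lists were chosen after their values were seen. The gene lists, the comparison and the rule were chosen with earlier results of these data known. Each list of at least 3 tested genes is described by counts and medians with no test. Alternatives varied the pseudocount, filter, normalization, limma settings, library weights, covariate, replicate block and the libraries included. Positions are from GENCODE M21 (GRCm38), matched for 13926 of 14028 genes, and promoter windows and the microRNA sequence are from RefSeq (GRCm38.p6). Plots used matplotlib 3.10.9 in Python 3.11.15.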

Additional observations from a re-analysis of the deposited data

Results flagged for a closer look

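Among 120 groups of 4 libraries examined, for the named genes and the list means, 12 had a library far from the other 3, where chance gives about 1 in 20. Null replicate 1 was the high library among null cords for Trim59 (16.3 RPKM, others 12.4 to 12.6), Ddit4l (5.58 RPKM, others 4.16 to 4.21) and Nfe2l3 (4.96 RPKM, others 3.89 to 4.00), each lower in null cords, so that it was the null library nearest to wild type. Null replicate 3 was high for Creb5 (1.96 RPKM, others 1.32 to 1.40). Null replicate 2 was high in the mean of the reactive astrocyte list (1.41, others 0.25 to 0.37) and of the antigen presentation list (0.79, others 0.04 to 0.11), both as log2 deviations from the wild type mean.

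Among wild type cords, replicate 4 was high for Dusp6 (7.16 RPKM, others 5.91 to 6.08), low for Hif3a (0.271 RPKM, others 0.441 to 0.458), and high in the means of the astrocyte list (0.12, others -0.05 to -0.02) and the lipid droplet and fatty acid oxidation list (0.17, others -0.07 to -0.05). Wild type replicate 1 was low for Tinagl1 (2.31 RPKM, others 2.67 to 2.73) and wild type replicate 2 was high for Nfe2l3 (6.25 RPKM, others 5.35 to 5.48). What sets these libraries apart was not tested.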

How the results depend on the processing

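The target was called under each of the 20 alternatives, with differences from -3.50 to -2.77 and adjusted p up to 0.0364. The count of called genes stayed at 1 under every alternative except these: it was 41 with array weights, 2 without null replicate 2 and wild type replicate 4, and from 1 to 34 leaving out single libraries, the 34 without null replicate 1. With array weights, leaving out single libraries gave 208, 31, 2069 and 1443 without null replicates 1 to 4 and 207, 7, 146 and 12 without wild type replicates 1 to 4, and it was 34 without null replicate 2 and wild type replicate 4, 78 with a covariate for Xist and 17 with quantile normalization, all chosen after seeing the data, and the weights did not fully converge in 2 of the fits that left out libraries. These calls thus hang on the weights. At 3 months the count of 1 was 4 with the replicate block and from 1 to 10 leaving out single libraries, with 10 without null replicate 1. The replicate block, with 1 call and 630 genes at an unadjusted p under 0.05 at 17 months against 658 without it, rests on shared numbers only, since same-numbered libraries deviated with correlations of 0.55, -0.25, -0.30 and -0.01. The other named genes kept their direction under every alternative, with 30 of their alternative values past the threshold and 529 not. The rule requires separate groups, so leaving out or weighting libraries, or changing the pseudocount, could not turn a direction. The kept direction is therefore no evidence of stability under those alternatives. Of the alternative list medians 610 moved by less than the spread between libraries and 10 by more, the endothelial and erythroid ones among them. That spread includes null replicate 2 and wild type replicate 4, so it is a wide measure and the 610 do not show stability. Among the 610 are the reactive astrocyte median, which fell from 0.55 to 0.24 without null replicate 2, and the motor neuron median. The latter turned from -0.12 to 0.03 without both libraries. Read depth is unknown, so no counting error could be given.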

Other observations

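Immediate early genes, which respond to neuronal activity and stress within minutes, had no common direction at 17 months. Of 18 tested 7 were higher, with a median of -0.04. Jun measured 15.0, 13.03, 11.2 and 12.7 RPKM in null and 16.3, 15.1, 14.5 and 17.9 RPKM in wild type cords (-0.29, SE 0.10, limma adjusted p = 0.853). Genes of the heat shock response and of ER stress had a median of -0.04 over 17 genes. These lists stood at 0.12 and 0.11 at 3 months.

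In the hypoxia and glucose list (median 0.20, 13 of 15 higher), Txnip, a glucose sensor, had separate groups at 10.5, 28.7, 15.1 and 11.9 RPKM in null and 8.02 to 10.3 in wild type cords (0.74, SE 0.27). Vegfa measured 22.2, 17.2, 16.5 and 20.3 RPKM in null and 17.5, 16.1, 15.5 and 12.2 RPKM in wild type cords (0.31, SE 0.12), and here null replicate 1 was the highest library. At 3 months 14 of these 15 genes were higher, with 6 at an unadjusted p under 0.05, against 3.12% of all genes with such a p and 52.8% of all genes higher. Without null replicate 2 the median at 17 months was 0.11, and without it and wild type replicate 4 it was 0.18.

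Mir8094, which the rule leaves out and which was chosen after its values were seen, had the smallest p of the lower genes after the target (-1.48, limma adjusted p = 0.533). It was listed at 4.42e-36, 1.11e-33 and 6.40e-34 RPKM in null replicates 1 to 3, at 0.480 in null replicate 4 and at 0.769, 1.59, 1.57 and 0.864 RPKM in wild type replicates 1 to 4. The mature sequence (chr17:35251314-35251334, plus strand, seed of bases 2 to 8 in capitals) is shown because the whole of it lies in a coding gene.
mmu-miR-8094: aACUGAAGgacaacgagaaga
It lies in an exon of Ddx39b on the same strand (35251247 to 35251378), and reads of that exon cannot be told from those of the microRNA gene. Ddx39b itself measured 58.0 ± 3.42 RPKM in null and 55.8 ± 1.52 in wild type cords (mean ± SD, n = 4 each).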
